A study of Homo sapiens with 6 samples.

Results

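The 7 APOBEC3 cytidine deaminase genes (APOBEC3A, APOBEC3B, APOBEC3C, APOBEC3D, APOBEC3F, APOBEC3G and APOBEC3H) were taken by their Ensembl identifiers from a table of 60240 genes. The family was chosen by name with its log2 fold changes between LSD1 KO and WT cells already known, so the values of that contrast are given as a description. Gene expression was measured by RNA-seq of polyadenylated RNA from HCT116, a human colorectal carcinoma cell line, in 3 WT libraries and 3 LSD1 KO libraries. WT cells carried no edit of KDM1A, the gene of the histone H3K4 demethylase LSD1. LSD1 KO cells were made with CRISPR/Cas9 against the first exon of KDM1A, selected with puromycin and grown from individual clones, and the number of clones behind the 3 libraries is not given in the sources used here. The labels name no treatment of either group. The study's methods speak of biological replicates for its experiments in general, but the sources do not say for these libraries whether they came from separate cultures, so p-values measure the spread between these libraries, which may be technical. In these bulk libraries, fewer cells of a type and less RNA per cell cannot be told apart.

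APOBEC3 enzymes turn cytosine into uracil in single-stranded DNA, and in this way damage the genomes of retroviruses. They also limit the movement of retrotransposons. The genes lie side by side in a cluster that arose by duplication, and several respond to interferon or to NF-kappaB signalling. In tumours, APOBEC3A and APOBEC3B are best known as sources of mutation, while APOBEC3D, APOBEC3F, APOBEC3G and APOBEC3H are best known as barriers to HIV.

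In both groups APOBEC3C, APOBEC3B and APOBEC3F supplied nearly all APOBEC3 counts, and APOBEC3A, APOBEC3G and APOBEC3H were close to the detection floor. Every member had a slightly higher mean in LSD1 KO than in WT cells, between 1.10 and 1.44 times the WT mean, and none passed the test across all genes. For APOBEC3C and APOBEC3F every LSD1 KO library lay above every WT library, as was the case for 4.23% of all genes tested. For the other 5 members the groups overlapped.

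The cluster spans 151 kb of the plus strand of chromosome 22 on GRCh37. From its start to its end come APOBEC3A (22, 39348746 to 39359189), APOBEC3B (39378352 to 39388809), APOBEC3C (39410262 to 39416357) and APOBEC3D (39417118 to 39429282), followed by APOBEC3F (39436609 to 39451977), APOBEC3G (39473072 to 39483748) and APOBEC3H (39493229 to 39500072). CBX6 and CBX7, which encode Polycomb proteins, lie on either side. The coding sequences fall into 2 sizes. APOBEC3A, APOBEC3C and APOBEC3H, which hold a single deaminase domain, had coding sequences of 597, 570 and 549 bases. APOBEC3B, APOBEC3D, APOBEC3F and APOBEC3G, which hold a pair of such domains, had 1146, 1158, 1119 and 1152 bases.

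Because the members are near copies, a read can match more than one of them. The first 60 coding bases of 5 members are shown for this reason, read from the annotated transcripts, with capitals where a base differs from APOBEC3B.
APOBEC3B: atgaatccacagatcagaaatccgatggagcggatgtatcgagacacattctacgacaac
APOBEC3D: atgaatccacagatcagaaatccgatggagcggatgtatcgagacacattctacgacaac
APOBEC3C: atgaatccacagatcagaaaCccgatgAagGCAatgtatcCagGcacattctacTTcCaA
APOBEC3F: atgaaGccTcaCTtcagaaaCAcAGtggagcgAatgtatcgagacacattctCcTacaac
APOBEC3G: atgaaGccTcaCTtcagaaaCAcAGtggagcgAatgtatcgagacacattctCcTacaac
APOBEC3D began with the same 60 bases as APOBEC3B, and the stretch without a difference ran for 172 bases. APOBEC3F and APOBEC3G were identical to each other over these bases, and each differed from APOBEC3B at 11 of them, as did APOBEC3C. APOBEC3A and APOBEC3B shared a run of 196 coding bases, at bases 173 to 368 of APOBEC3A and 722 to 917 of APOBEC3B, and its start is printed as an example of shared sequence.
APOBEC3A and APOBEC3B: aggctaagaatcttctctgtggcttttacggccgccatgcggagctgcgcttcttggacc
The longest shared run of all was 222 bases, between APOBEC3D and APOBEC3F, and APOBEC3F and APOBEC3G shared 142 bases. APOBEC3H shared at most 20 bases with any other member.

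To measure how much sequence the members share, all 31-base sequences of each gene's transcripts were looked up in the transcripts of every other gene. The paper describes paired-end reads longer than 31 bases, and a read pair can reach past a shared stretch. The values are therefore shares of sequence and not of counts. The share also found in another APOBEC3 gene was 36.5% for APOBEC3B, 22.7% for APOBEC3D, 20.7% for APOBEC3A and 16.9% for APOBEC3F. It was lower for APOBEC3G (7.38%) and APOBEC3C (6.78%), and no 31-base sequence of APOBEC3H lay in another member. With genes outside the family included, the share was 28.0% for APOBEC3A, 24.8% for APOBEC3F, 13.3% for APOBEC3G and 10.4% for APOBEC3C. It was 1.61% for APOBEC3H and stayed at 36.5% for APOBEC3B. APOBEC3A and APOBEC3B were the closest pair, with 18.1% and 18.4% of their own sequences in the other. APOBEC3D stood apart in another way, since 82.1% of its 31-base sequences also lay in ENSG00000284554, a readthrough gene that joins the APOBEC3C and APOBEC3D loci. That gene had 0 counts in all 6 libraries, as did the antisense gene APOBEC3B-AS1. With the readthrough gene left out, 32.4% of the APOBEC3D sequences lay in some other gene, inside or outside the family. APOBEC3H, APOBEC3C and APOBEC3G shared the least with other genes. APOBEC3A, APOBEC3B, APOBEC3D and APOBEC3F shared more, and their counts may be uncertain at the level of the single gene, to an extent that was not tested.

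**Figure D1:**
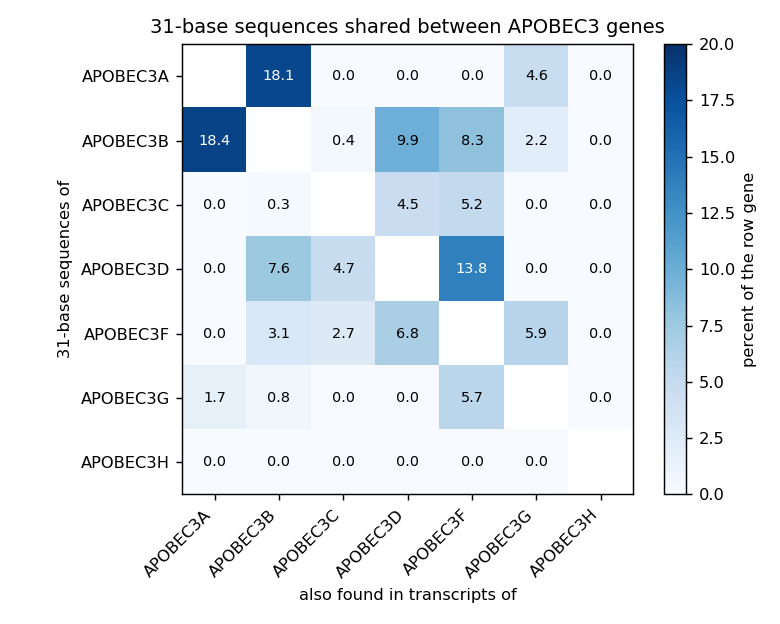
Share of the 31-base sequences of each APOBEC3 gene (rows) that also occur in the transcripts of each other APOBEC3 gene (columns), in percent of the row gene, with darker blue for a larger share. The darkest cells join APOBEC3A and APOBEC3B (18.1% and 18.4%), and the APOBEC3H row and column are at 0.

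The libraries held 25379279 to 29186963 counts each. A floor of 3 counts stood for 0.103 to 0.118 CPM (counts relative to library size, with TMM factors for the gene values and without them for the floor), which covers counting error only. KDM1A, the edited gene, was 223 ± 8.78 CPM in WT and 28.4 ± 1.30 CPM in LSD1 KO libraries (SD, n = 3 each), lower in every LSD1 KO library. CD2, CD3D and CD3E, markers of the lymphocytes in which several APOBEC3 genes are abundant, had 0 counts in all 6 libraries. The 7 lymphocyte markers together reached at most 0.416 CPM in WT and 0.368 CPM in LSD1 KO cells. Of 6 markers of colon epithelium, KRT8, KRT18, KRT19, EPCAM and CDH1 were well expressed and VIL1, a protein of the intestinal brush border, had between 2 and 8 counts. EPCAM, a cell adhesion molecule of epithelia, was 204 ± 39.2 CPM in WT and 104 ± 28.3 CPM in LSD1 KO libraries (SD, n = 3 each; q = 0.0788 with the replicate block by edgeR). Of 4 fibroblast markers, COL1A1, a collagen gene, was 22.7 ± 1.97 CPM in WT and 32.4 ± 2.05 CPM in LSD1 KO libraries (SD, n = 3 each; log2 fold change 0.52, q = 0.0628 with the replicate block by edgeR). LUM had 0 counts in all 6 libraries and COL1A2 had 1 count in all. The 5 myeloid markers summed to at most 1.99 CPM in a WT library and 2.54 CPM in an LSD1 KO library. The part of these markers in the APOBEC3 values was not tested.

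Levels of different genes were compared per kilobase of the longest coding transcript. In WT cells the order ran from APOBEC3C at 25.2 CPM per kb through APOBEC3B at 15.6, APOBEC3F at 3.03, APOBEC3D at 1.06, APOBEC3H at 0.621 and APOBEC3G at 0.509 to APOBEC3A at 0.282 CPM per kb (means, n = 3). The order was the same in LSD1 KO cells, where APOBEC3C stood at 29.9 and APOBEC3A at 0.341 CPM per kb. APOBEC3D and APOBEC3H overlapped over the libraries of a group, and so did APOBEC3H and APOBEC3G, while the ranges of the other neighbours in the order were apart in both groups. The order held for 7 of 7 members when the median transcript length was used. As shares of the summed CPM of the family, APOBEC3C took 58.8% ± 2.52 in WT and 57.4% ± 3.71 in LSD1 KO cells, APOBEC3B 25.2% ± 3.75 and 25.2% ± 4.02, and APOBEC3F 12.1% ± 1.49 and 13.4% ± 2.18 (SD, n = 3 each).

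**Figure D2:**
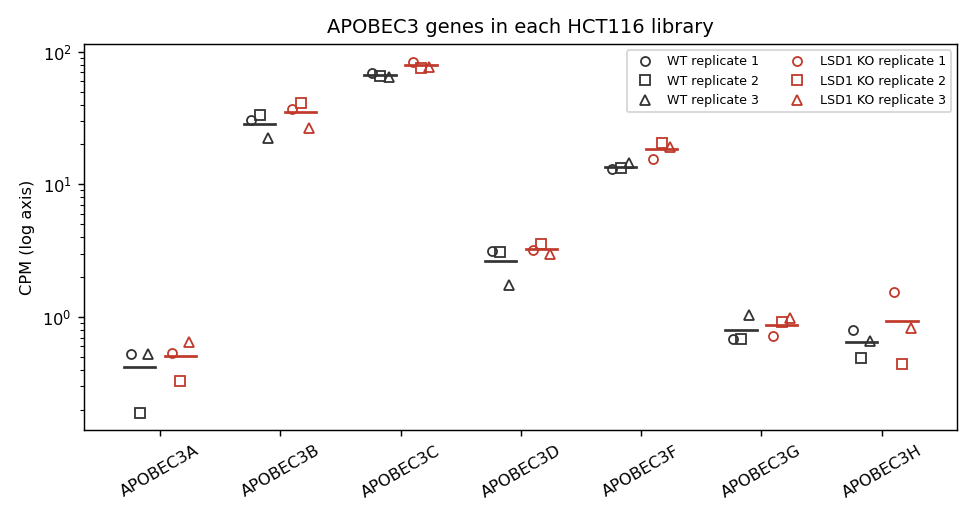
CPM of the 7 APOBEC3 genes in each library (log axis), with WT in black, LSD1 KO in red, symbols for the replicate number and a bar for the group mean. APOBEC3C lies between 64.9 and 84.5 CPM and APOBEC3A between 0.189 and 0.644 CPM, and the red and black points are separate for APOBEC3C and APOBEC3F.

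LSD1 KO and WT libraries were compared over 17672 genes with edgeR's quasi-likelihood test, and a gene was called at a Benjamini-Hochberg q value under 0.1. All 7 members passed the filter on low counts. The number called was 0 of 7, against 0.00566% of all genes tested (1 gene, the edited KDM1A, lower in LSD1 KO cells). Since libraries with the same replicate number deviated together, the test was also run with the replicate number as a block, and then called 0 of 7 members against 1.6% of all genes (282 genes, 1.05% higher and 0.549% lower in LSD1 KO cells). DESeq2 likewise called 0 of 7, against 0.376% of its genes, and with the block it called 0 of the 4 members for which it gave a q, against 4.21% of the genes with a q. On the first principal component replicate 2 lay at the positive end (50.5 in WT, 58.0 in LSD1 KO) and replicate 1 at the negative end (-51.1 and -38.3). Replicate 3 lay between them in both groups. Without both replicate 2 libraries the fit with the block called 0 of 7, against 5.85%. At an unadjusted p under 0.05, 1 member passed without the block (552 of all 17672 genes) and 3 with it (2373 genes). The contrast helped to choose the family, and nothing is read from these counts.

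The median log2 fold change of the 7 members was 0.29, beside 0.00082 over all genes tested, and 50.1% of all genes tested had a positive value. With the block the medians were 0.32 and 0.0030. Of the members, 5 of 7 (APOBEC3A, APOBEC3B, APOBEC3C, APOBEC3D and APOBEC3F) were higher in LSD1 KO than in WT cells in each of the 3 same-numbered pairs, against 18.8% of all genes, and 2 of 7 had every LSD1 KO library above every WT library, against 4.23% of all genes. None (0 of 7) had every LSD1 KO library below every WT library, against 3.51% of all genes. Members that share sequence can share reads, so they do not count as independent.

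**Figure D3:**
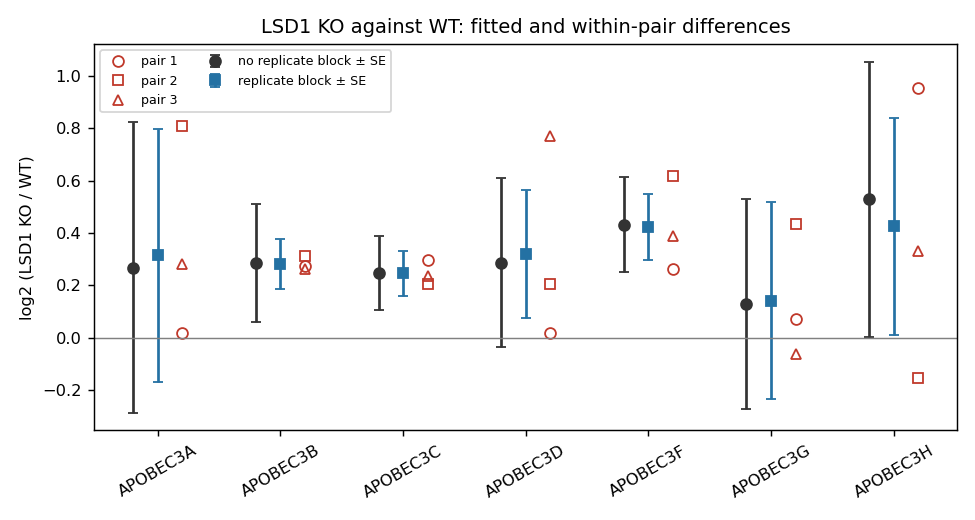
Log2 fold change of LSD1 KO against WT for each APOBEC3 gene, fitted by edgeR without (black) and with (blue) the replicate block, with bars of 1 standard error, beside the difference within each same-numbered pair (red symbols). All fitted values lie above 0. The pairs of APOBEC3B (0.26 to 0.31) and APOBEC3C (0.20 to 0.30) lie close together, and those of APOBEC3H run from -0.15 to 0.95.

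APOBEC3C, a single-domain enzyme and the most abundant member, had 68.7, 66.1 and 64.9 CPM in WT replicates 1 to 3 and 84.5, 76.1 and 76.4 CPM in the LSD1 KO replicates. All 3 LSD1 KO libraries were above all 3 WT libraries. The fitted log2 fold change was 0.25 (SE 0.14, q = 0.999 by edgeR), and 0.25 with the block (SE 0.086, q = 0.272). It stayed between 0.20 and 0.27 whichever library was left out.

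APOBEC3F, a restriction factor with a pair of domains, had 12.96, 13.4 and 14.6 CPM in WT and 15.6, 20.5 and 19.1 CPM in LSD1 KO replicates 1 to 3. The groups did not overlap here either, but the lowest LSD1 KO library (15.6) was near the highest WT library (14.6). The log2 fold change was 0.43 (SE 0.18, unadjusted p = 0.0429, q = 0.999 by edgeR), and 0.42 with the block (SE 0.13, q = 0.201), the lowest q of any member. It lay between 0.33 and 0.54 when single libraries were left out.

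APOBEC3B, the nuclear enzyme, had 30.4, 33.4 and 22.3 CPM in WT and 36.8, 41.4 and 26.7 CPM in LSD1 KO replicates 1 to 3. The groups overlapped, because replicate 3 was the lowest library of both groups, while each LSD1 KO library was above the WT library with the same number. The within-pair log2 differences were 0.28, 0.31 and 0.26. The log2 fold change was 0.29 (SE 0.22, q = 0.999 by edgeR) without the block and 0.28 (SE 0.095, q = 0.253) with it. Without WT replicate 3 or LSD1 KO replicate 2 it was 0.13, and without LSD1 KO replicate 3 it was 0.45.

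APOBEC3D had 3.17, 3.07 and 1.76 CPM in WT and 3.22, 3.54 and 2.99 CPM in LSD1 KO replicates 1 to 3. The low value was WT replicate 3, with 53 counts, and the groups overlapped. The log2 fold change was 0.29 (SE 0.32, q = 0.999 by edgeR) and fell to 0.057 without WT replicate 3. With the block it was 0.32 (SE 0.24, q = 0.618).

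APOBEC3A, the interferon-induced mutator of myeloid cells, was counted 14, 5 and 16 times in WT replicates 1 to 3 and 15, 9 and 17 times in the LSD1 KO replicates. Replicate 2 was the lowest library in both groups. All 6 counts were above the floor of 3. Yet the exact Poisson 95% interval of the lowest count, 5 in WT replicate 2, ran from 1.62 to 11.7. That of the highest, 17 in LSD1 KO replicate 3, ran from 9.90 to 27.2. Whether a difference of the size seen could be detected was not tested. The means were 0.416 ± 0.196 CPM in WT and 0.504 ± 0.159 CPM in LSD1 KO cells (SD, n = 3 each), with a log2 fold change of 0.27 (SE 0.55, 95% interval -0.996 to 1.53) that turned to -0.081 without WT replicate 2.

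APOBEC3G, the prototype of HIV restriction, reached 18, 18 and 31 counts in WT replicates 1 to 3, beside 20, 25 and 26 counts in the LSD1 KO replicates. The highest library was a WT library, and the groups overlapped. The log2 fold change was 0.13 (SE 0.40, 95% interval -0.78 to 1.04), the smallest of the family, and it turned to -0.031 when replicate 2 was left out of both groups.

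APOBEC3H, whose transcripts share no 31-base sequence with the other members, reached 21, 13 and 20 counts in WT replicates 1 to 3, beside 43, 12 and 22 counts in the LSD1 KO replicates. The highest and the lowest library were both LSD1 KO libraries, with exact Poisson 95% intervals of 31.1 to 57.9 for the 43 counts and 6.20 to 21.0 for the 12 counts. The log2 fold change was 0.53 (SE 0.53, 95% interval -0.67 to 1.73), and it was -0.028 without LSD1 KO replicate 1 and 0.85 without LSD1 KO replicate 2.

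Because reads may be divided between members, the CPM of the family were also summed, which leaves a division inside the family without effect. Reads that also match genes outside the family are not covered by this. The sum was 117.2, 117.2 and 105.8 CPM in WT and 142.8, 143.2 and 127.7 CPM in LSD1 KO replicates 1 to 3. Every LSD1 KO library was above every WT library. The means were 113.4 ± 6.62 and 137.9 ± 8.84 CPM (SD, n = 3 each), a ratio of 1.22, and the within-pair log2 differences were 0.28, 0.29 and 0.27. No test was made on the sum, since its genes were chosen with the contrast in view. The ratio was 1.33 for APOBEC3D and APOBEC3F together, whose groups were apart, and 1.22 for APOBEC3A and APOBEC3B together, whose groups overlapped.

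The replicate number is a measure that the choice of the family did not use. In the model with group and replicate, the F test of the replicate number, added after the data had been seen, called 41.2% of all genes tested and 1 of 7 members. That member was APOBEC3B, with a log2 difference of -0.45 for replicate 3 and 0.15 for replicate 2 against replicate 1 (q = 0.0157 by edgeR). The other 6 members had q values from 0.189 to 0.621. APOBEC3H and APOBEC3A had the widest replicate differences, -1.26 and -1.04 for replicate 2 against replicate 1, at counts of 5 to 43. APOBEC3B thus varied between replicate numbers, and APOBEC3C, with differences of -0.10 and -0.11, varied least.

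Genes around the cluster were compared to place the members in their chromosomal setting. Of 11 neighbours, edgeR called 0 with or without the block. With the block, 2 had an unadjusted p under 0.05, against 2373 of all 17672 genes tested. A positive log2 fold change was seen for 7, with a median of 0.17 without the block and 0.18 with it. The log2 fold changes with the block were 0.20 (SE 0.10) for RPL3, a ribosomal protein gene and the most abundant neighbour, 0.16 (SE 0.088) for SUN2, of the nuclear envelope, and -0.083 (SE 0.084) for CBX6. CBX7 was picked for mention once its values were known, as the neighbour with every LSD1 KO library above every WT library. It was 34.2 ± 5.37 CPM in WT and 39.4 ± 0.607 CPM in LSD1 KO cells (SD, n = 3 each). Such a separation was seen for 4.23% of all genes tested.

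**Figure D4:**
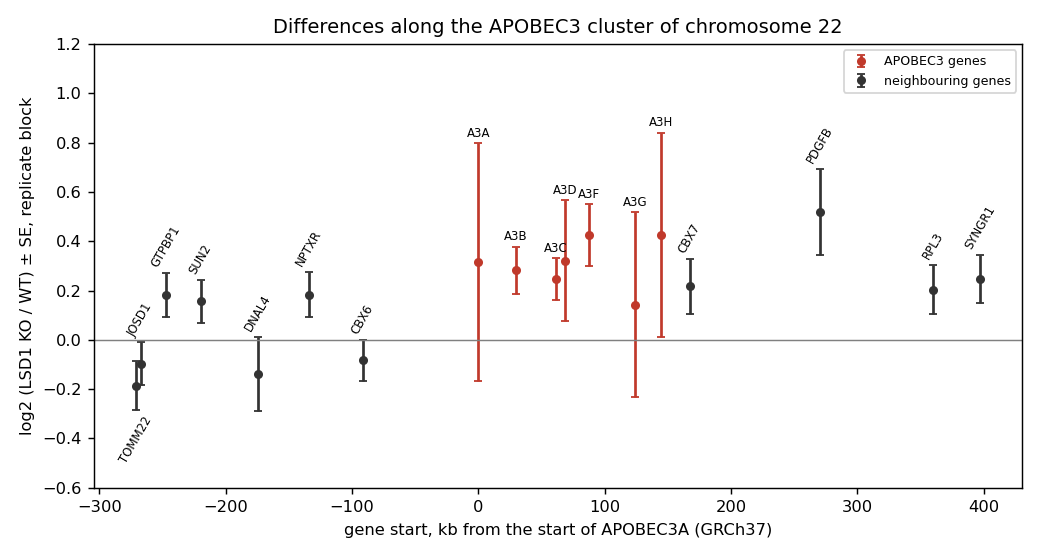
Log2 fold change of LSD1 KO against WT with the replicate block (bars of 1 standard error) for the APOBEC3 genes (red) and their neighbours (black), placed by gene start in kb from the start of APOBEC3A. The red points lie between 0.14 and 0.43, and the black points between -0.19 and 0.52.

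Relatives of the family outside the cluster, APOBEC1, APOBEC2 and APOBEC4, were nearly silent. APOBEC1, which edits apolipoprotein B mRNA, had 0 counts in all 6 libraries. APOBEC2 had 0 to 12 counts and APOBEC4 had 0 to 3, and all 3 genes were removed by the filter. Of the other nucleotide and RNA deaminases, 8 of 9 were tested and 0 were called (0 with an unadjusted p under 0.05). ADAR, which edits double-stranded RNA, had 319 ± 87.8 CPM in WT and 320 ± 85.2 CPM in LSD1 KO cells, and DCTD and ADAT2 had log2 fold changes of -0.15 and 0.18 with the block.

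Genes that act on APOBEC3 genes or on their products were counted as lists with the same edgeR test, with or without the block, and DESeq2 called 0 of them too. Of 18 regulators (interferon, NF-kappaB, p53 and cell cycle factors, the transcription factor TEAD4 and the kinase PRKCA), 0 were called. With the block, 4 had an unadjusted p under 0.05, against 2373 of all 17672 genes tested. A positive log2 fold change was seen for 7, and the median was -0.055. NFKB2 and E2F4, the most abundant of them, had log2 fold changes of 0.10 and -0.17 with the block. IRF9 and STAT2, which carry the interferon signal to its target genes, were picked for mention once their values were known, because every LSD1 KO library was above every WT library. IRF9 was 7.60 ± 3.01 CPM in WT and 12.1 ± 0.561 CPM in LSD1 KO cells (q = 0.201 with the block by edgeR), and STAT2 was 39.5 ± 1.64 and 47.0 ± 3.24 CPM (q = 0.329, SD and n = 3 for each). TEAD4 was picked likewise, because every LSD1 KO library was below every WT library. It was 26.3 ± 2.76 CPM in WT and 23.7 ± 0.950 CPM in LSD1 KO cells (SD, n = 3 each; q = 0.590 with the block by edgeR). Of all genes tested, 4.23% had every LSD1 KO library above every WT library and 3.51% had every one below. These shares also stand beside the lists that follow.

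Of 20 genes that remove uracil from DNA or repair the site it leaves, 0 were called. With the block, 8 had an unadjusted p under 0.05, against 2373 of all 17672 genes tested. A positive log2 fold change was seen for 5, and the median was -0.12. PARP1, APEX1 and FEN1, the most abundant of them, had log2 fold changes of -0.32, -0.24 and -0.36 with the block (q of 0.267, 0.350 and 0.283 by edgeR). UNG, the main uracil DNA glycosylase, and the endonuclease gene APEX2 were picked in the same way, as the genes of the list whose LSD1 KO libraries all lay below the WT libraries. UNG had 105, 130 and 106 CPM in WT and 97.7, 59.8 and 79.8 CPM in LSD1 KO replicates 1 to 3 (q = 0.226 with the block by edgeR). APEX2 was 35.3 ± 4.38 and 28.1 ± 2.84 CPM (SD, n = 3 each).

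Of 22 other factors that restrict viruses and retrotransposons, HUSH silencing complex members included, 18 were tested and 0 were called. With the block, 3 had an unadjusted p under 0.05, against 2373 of all 17672 genes tested. A positive log2 fold change was seen for 6, and the median was -0.020. IFITM3, ZC3HAV1 and SERINC3 were the most abundant, with log2 fold changes of -0.050, -0.44 and 0.19 with the block. ZC3HAV1, which binds CpG-rich viral RNA, came nearest to the threshold, with a q of 0.101 by edgeR. The groups did not overlap for 4 genes of the list, which were picked likewise. BST2, the interferon-induced tether of budding virus, had 2.46, 3.07 and 1.26 CPM in WT and 4.51, 3.83 and 5.22 CPM in LSD1 KO replicates 1 to 3 (q = 0.219 with the block by edgeR), and SERINC3 was also higher in every LSD1 KO library. MOV10, an RNA helicase, was lower in every LSD1 KO library, at 88.3 ± 3.93 CPM in WT and 72.3 ± 10.6 CPM in LSD1 KO cells (SD, n = 3 each; q = 0.284). RSAD2, an interferon-induced antiviral enzyme, was lower too, with 23, 15 and 9 counts in WT replicates 1 to 3, beside 0, 1 and 5 in the LSD1 KO replicates, and was removed by the filter.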

How the data were processed

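RNA-seq libraries of 3 WT and 3 LSD1 KO HCT116 samples were used. The authors trimmed the reads, quantified them with Salmon against the GENCODE v36 transcriptome (GRCh38), and deposited expected counts in whole numbers for each gene, with no scaling between libraries. The submitters' processing notes name FastQC, Trimmomatic 0.39 and Salmon 1.4.0. The paper's other assays were not analysed here.

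The members and lists were chosen with earlier results of these data known. Counts were compared with edgeR 4.0.16 in R 4.3.3 (TMM, filterByExpr, quasi-likelihood test, Benjamini-Hochberg adjustment, q under 0.1). DESeq2 1.42.0 was an alternative, beside other size factors and filters, a q threshold of 0.05, the replicate block and leaving out libraries. From each list, the genes called were named, or otherwise the 3 with the highest mean CPM, and genes outside this rule are marked. Some genes that the rule names are not reported here. The replicate numbers were taken to pair the libraries, because the deviations of same-numbered libraries from their group means correlated across genes at r = 0.553, 0.553 and 0.404, and those of other WT and LSD1 KO pairs between -0.516 and 0.0454. The sources do not say whether equal numbers mark a shared preparation.

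Total counts per library (25379279 to 29186963) limit the precision. Intervals are exact Poisson intervals and cover counting error only. Positions, transcript lengths and coding sequences came from GRCh37 with GENCODE v44lift37, since the table carries none, and 31-base sequences were counted in those transcripts and not in the transcriptome used for quantification. The edgeR comparison of LSD1 KO and WT, with and without the block, and the DESeq2 comparison without it were tested on simulated data. The simulated libraries held no replicate differences, so this cannot show how the fits handle those of the real libraries.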

Additional observations from a re-analysis of the deposited data

How the results depend on the processing

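Of the APOBEC3 members, 0 were called under every alternative, with a lowest q of 0.201. The number of genes called overall was 1, the edited KDM1A. It became 114 when all genes with counts were tested, 95 with DESeq2, 282 with the replicate block and 597 with DESeq2 and the block. Without the replicate 2 libraries of both groups it was 22, and 1055 with the block (alternatives with DESeq2 and the block together, or without replicate 2, were chosen after seeing the data). With single libraries left out it ranged from 1 to 26, the highest without LSD1 KO replicate 2. The cause of these changes was not tested. Of 104 member values under 15 alternative fits, 100 kept their direction, and 101 had a q, 0 of them under 0.1 (DESeq2 with the block gave no q for APOBEC3A, APOBEC3G and APOBEC3H). The direction turned for 4: APOBEC3A to -0.081 without WT replicate 2 (highest 0.48 without WT replicate 3), APOBEC3H to -0.028 without LSD1 KO replicate 1 (highest 0.85 without LSD1 KO replicate 2), and APOBEC3G to -0.031 without both replicate 2 libraries and -0.017 with the block as well. The fits reuse the same libraries, and the family was chosen with this contrast known, so these counts of directions are a description and not a test. The replicate block changed no member call. APOBEC3A was not tested where at least 10 counts in every library were required. The summed family value, a log2 difference of 0.28, stayed between 0.23 and 0.33 with single libraries left out. APOBEC3A, APOBEC3G and APOBEC3H had low counts, from 5 to 43, and how much of their spread is counting error was not tested.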

Other observations

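Genes whose profile over the 6 libraries was most like that of the most abundant members were found by the root mean square difference of centred log2 CPM, among 14746 genes with a mean of at least 1 CPM. For APOBEC3C they were TYK2 (0.034), ZBTB3 (0.036) and PRR3 (0.047), and 171 genes lay within 0.1. For APOBEC3B they were HAUS7 (0.046), HSD17B13 (0.054) and SRD5A3 (0.058), and 11 genes lay within 0.1. TYK2, a kinase of interferon receptors, had a mean of 64.9 CPM in WT and 77.4 CPM in LSD1 KO cells, beside 66.6 and 79.0 CPM for APOBEC3C. With 6 libraries, such likeness is a description, and the libraries share their depth and replicate differences.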
